A study of Mus musculus with 2 samples.

Results

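Endothelial cells of the mouse cochlea were picked from 2 droplet libraries as barcodes with at least 500 UMIs, at least 300 genes and at most 20% mitochondrial UMIs. A barcode was kept when it held at least 1 UMI of at least 4 of the 8 genes Pecam1, Cdh5, Cldn5, Flt1, Egfl7, Adgrl4, Ptprb and Ly6c1 and no UMI of Higd1b, Ncmap or C1qa, which mark pericytes, myelinating Schwann cells and macrophages. This gave 2846 cells among 37556 filtered barcodes, with 1065 of 17423 in the noise-only library and 1781 of 20133 in the drug library. The tissue was sensory epithelium of the cochlea, from C57BL/6J animals 4 to 6 weeks old. All ears were exposed to 105 dB noise (8 to 16 kHz, lasting 2 hours), and dissection followed after 2 days. The drug library pooled 5 ears that received a drug at 90 mg/ml ahead of the noise, and the noise-only library pooled the 5 other ears of the same mice. The series title gives the drug as VPA, and no unexposed ear was analysed here. Each group is 1 pooled library, so differences between groups have no replicate check and no test. Intervals are exact 95% binomial intervals and cover counting error only.

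The vessels of the cochlea supply the stria vascularis, the spiral ligament and the modiolus, and much of their endothelium forms the blood-labyrinth barrier. Such endothelium is sealed by claudin 5 and other junction proteins, carries glucose, amino acid and organic anion transporters, and pumps drugs back to the blood through Abcb1a and Abcg2. Wnt signalling through Lef1 and the forkhead factor Foxq1 accompanies this barrier state in brain vessels. Leaky or fenestrated vessels make Plvap, the protein of their diaphragms, in its place. Arteries, capillaries and veins also differ in their genes along the vessel tree.

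Genes that the rule did not use were checked against the endothelial label. Levels are given as CPM, the UMIs of a gene scaled by all UMIs of the summed cells to 1000000, and no comparison between genes is made from them because 3′ counting does not remove gene-specific capture. Ramp2, a calcitonin receptor partner of vessels, stood at 918 CPM in noise-only and 769 CPM in drug endothelial cells, 19.9-fold and 15.2-fold above the other filtered barcodes of its library. Sox17, an endothelial transcription factor, stood 39.5-fold and 36.4-fold above them, and the efflux pump Abcb1a 38.1-fold and 24.7-fold. In all, 320 of the 9408 genes with at least 50 UMIs in the 2 sums together were at least 5-fold above the other barcodes in both libraries. They are called endothelial genes below, and they contain the 8 genes of the rule, so their enrichment describes the selection.

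The regulatory sequences ahead of some of these genes are shown for the marker genes Flt1 and Cldn5, for Cyp26b1, the endothelial gene with one of the largest differences between libraries, and for the interferon genes Isg15 and Ifit1, which differed little. ETS factors such as Erg and Fli1 are the classical regulators of endothelial genes. Each line holds the 250 bases ahead of the gene's start in RefSeq, build GRCm38.p6, 5′ to 3′ on the gene's strand, with matches to AGGAAG (ETS-type) or to GAAA, any 2 bases and GAAA (the core of the interferon element ISRE) on either strand in capitals.
Flt1, chr5:147726012-147726261, minus strand: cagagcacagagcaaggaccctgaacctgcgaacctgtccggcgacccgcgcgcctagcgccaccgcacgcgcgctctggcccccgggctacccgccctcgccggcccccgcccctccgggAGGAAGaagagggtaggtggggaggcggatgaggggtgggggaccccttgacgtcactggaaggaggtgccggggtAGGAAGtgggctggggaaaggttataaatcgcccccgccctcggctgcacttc
Cyp26b1, chr6:84593811-84594060, minus strand: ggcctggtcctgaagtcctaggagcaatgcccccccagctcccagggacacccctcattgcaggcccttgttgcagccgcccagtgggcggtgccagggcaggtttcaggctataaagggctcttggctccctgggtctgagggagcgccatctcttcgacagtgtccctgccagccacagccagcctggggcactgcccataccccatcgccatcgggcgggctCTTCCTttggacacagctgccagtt
Cldn5, chr16:18776597-18776846, plus strand: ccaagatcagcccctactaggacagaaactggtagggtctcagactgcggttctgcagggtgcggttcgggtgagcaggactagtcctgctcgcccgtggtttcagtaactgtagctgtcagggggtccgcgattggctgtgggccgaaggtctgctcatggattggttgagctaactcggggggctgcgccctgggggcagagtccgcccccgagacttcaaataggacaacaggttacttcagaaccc
Isg15, chr4:156200819-156201068, minus strand: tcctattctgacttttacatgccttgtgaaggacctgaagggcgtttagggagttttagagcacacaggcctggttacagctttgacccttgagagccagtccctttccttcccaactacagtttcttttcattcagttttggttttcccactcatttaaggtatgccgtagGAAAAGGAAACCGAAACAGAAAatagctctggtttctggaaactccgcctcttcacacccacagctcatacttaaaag
Ifit1, chr19:34640639-34640888, plus strand: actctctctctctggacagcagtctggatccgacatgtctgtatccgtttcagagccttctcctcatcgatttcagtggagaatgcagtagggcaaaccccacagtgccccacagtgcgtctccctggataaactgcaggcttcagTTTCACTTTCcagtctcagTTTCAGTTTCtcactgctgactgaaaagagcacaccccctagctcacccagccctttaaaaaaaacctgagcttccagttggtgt
Flt1, a VEGF receptor, had 2 matches, starting 129 and 53 bases ahead of the gene, and Cyp26b1, which breaks down retinoic acid, had 1 on the opposite strand at 25 bases. The window of Cldn5 held no match to AGGAAG. Of the endothelial genes with a promoter in the table, 108 of 229 (47.2%) held AGGAAG in these 250 bases, against 31.6% of all tested genes and 32.3% of all promoters. The ISRE-type letters stood in 13 of 22 interferon response genes with a promoter (59.1%), against 3.19% of tested genes and 3.46% of all promoters. Isg15 had 3 overlapping matches, starting 78, 72 and 66 bases ahead of the gene, and Ifit1 had 2 on the opposite strand, at 104 and 85 bases. Genes with several listed starts count as holding a motif when any window does, and a match is a description of letters.

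Endothelial cells made up 6.11% (5.76 to 6.48%) of noise-only and 8.85% (8.46 to 9.25%) of drug barcodes, a ratio of 1.45 (1.34 to 1.56). The ratio moved with depth. It was 2.02 (1.75 to 2.34) among barcodes with 500 to under 1000 UMIs, where the shares were 3.58% and 7.23%, and 1.30 (1.14 to 1.49) from 1000 to under 2000 UMIs. From 2000 to under 4000 UMIs it was 1.14 (0.989 to 1.32), and at 4000 UMIs and over it was 1.17 (0.895 to 1.54), so both of these intervals included 1. Barcodes with at least 1000 UMIs had a ratio of 1.24 (1.14 to 1.36). With each of these thinned to 1000 UMIs before the rule was applied, the shares were 7.77% and 8.52% (ratio 1.10, interval 0.999 to 1.21). Thinning all filtered barcodes to 500 UMIs gave a ratio of 1.30 (1.18 to 1.43). Leaving barcodes with Schwann markers out of the denominator gave 10.6% and 12.6% (ratio 1.19, interval 1.10 to 1.28). Shares of barcodes depend on how every other cell type was recovered, and a share cannot tell more endothelial cells from fewer of another type.

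**Figure D1:**
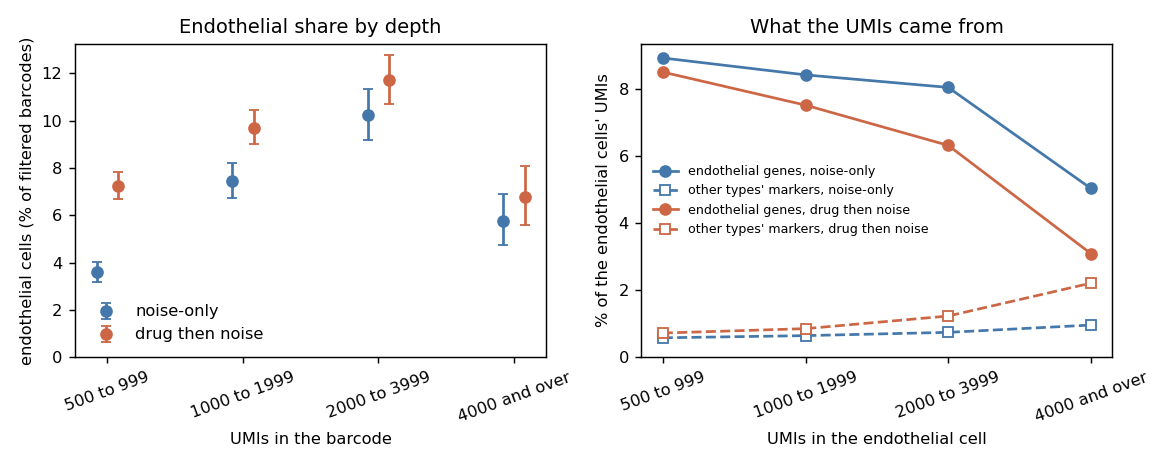
Left, endothelial cells as a percent of filtered barcodes against UMIs per barcode, with exact 95% binomial intervals; right, the percent of the endothelial cells' UMIs from the endothelial genes (circles) and from markers of other cell types without haemoglobin and other erythroid genes (squares). The libraries differ most below 1000 UMIs (3.58% against 7.23%), and the drug cells at 4000 UMIs and over hold 3.09% endothelial gene UMIs against 5.04% in noise-only cells.

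The endothelial cells of the drug library were shallower, with a median of 1380 UMIs and 836 genes against 1631 UMIs and 977 genes, and their median mitochondrial share was 4.89% against 3.35%. In the other barcodes the mitochondrial medians were 6.70% and 4.92%, so the offset was shared. All 8 genes of the rule were found in 21.9% of noise-only and 11.2% of drug endothelial cells, and exactly 4 in 14.5% and 18.6%. Just outside the rule, with 3 of the 8 genes, lay 80 noise-only and 195 drug barcodes with median depths of 821 and 838 UMIs; just inside, with 4 genes, lay 154 and 331 with medians of 990 and 887 UMIs. The 3 excluded genes removed 246 of 1311 and 363 of 2144 barcodes that met the marker rule, mostly through Ncmap (162 and 233), then Higd1b (56 and 82) and C1qa (43 and 83). The files share 111 barcode sequences, none of them endothelial in both libraries.

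Transcripts of other cell types ran through the endothelial cells and were more abundant in the drug library. Markers of 11 other types together (pericyte, smooth muscle, Schwann, fibrocyte, macrophage, epithelium, both strial types, neutrophil, platelet and neuron) took 0.77% of noise-only and 1.26% of drug endothelial UMIs, a ratio of 1.64, against a ratio of 1.04 in the other barcodes. Schwann markers stood at 3046 and 4532 CPM in endothelial cells, while they were lower in the other barcodes of the drug library (16196 and 11772 CPM). Ncmap, the excluded marker, is at 0 by the rule. Fibrocyte markers stood at 1337 and 2543 CPM and neutrophil markers at 160 and 1885 CPM, the latter with at least 2 genes in 3 and 9 cells. Haemoglobin and other erythroid genes stood at 15822 and 23395 CPM. Neuron markers went the other way (721 and 604 CPM), and epithelial markers differed little (1616 and 1647 CPM). Cells with fewer than 2 markers of each other type numbered 325 of 1065 and 409 of 1781, with medians of 1195 and 910 UMIs (this count uses the pericyte, smooth muscle, Schwann, fibrocyte, macrophage, epithelial, strial and erythroid lists). Values in these cells are given for only a part of the genes and lists. Whether foreign transcripts account for a difference was not tested. No doublet caller was run.

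Of the 9408 genes, 459 (4.88%) were at least 1.5-fold higher and 196 (2.08%) at least 1.5-fold lower in drug endothelial cells, and the median log2 ratio was -0.04. The log2 ratio adds 0.5 UMI to each sum. Direction went with how endothelial a gene was, although both measures share the counts of the endothelial cells. Of the 91 genes below 0.25 times the level of the other barcodes, with both libraries' CPM added, 44 were higher and 6 lower, with a median log2 ratio of 0.57. None of the 320 endothelial genes was higher and 12 were lower, and their median log2 ratio was -0.18. In cells without 2 markers of another type, the median over all 320, whatever their UMIs there, was -0.01. Single cells carried some of the largest ratios, as an example picked after its values were seen shows: S100a9, a neutrophil calcium-binding protein, stood at 74.8 and 762 CPM, with 93.1% and 27.7% of its UMIs in 1 cell.

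**Figure D2:**
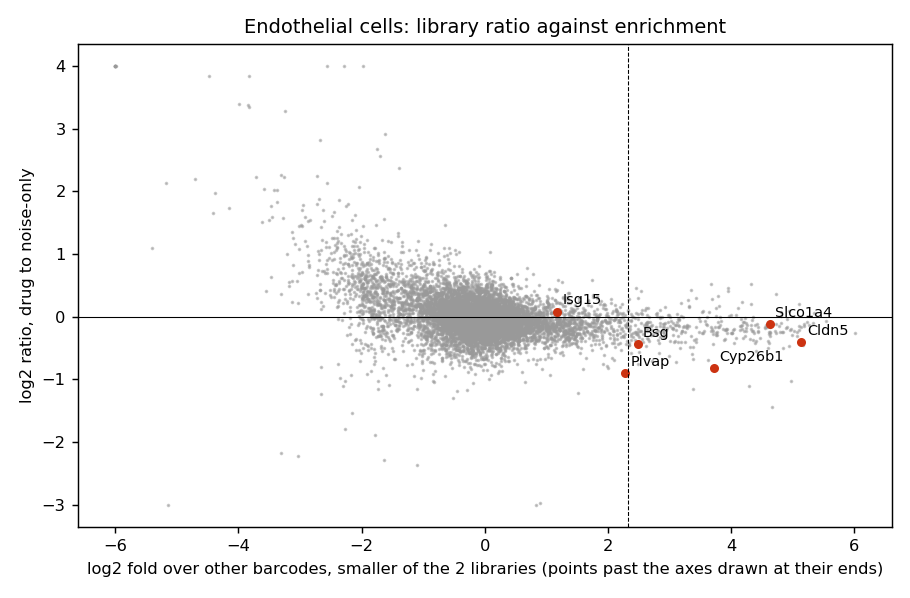
Each grey point is a tested gene, with its log2 ratio of drug to noise-only endothelial cells against its log2 fold over the other filtered barcodes (the smaller of the 2 libraries' folds), and the dashed line is 5-fold; points past the axes are drawn at their ends. The cloud leans upward among genes scarce in endothelial cells and below 0 among endothelial genes such as Cldn5, Bsg and Cyp26b1.

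The 8 genes of the rule are described first, since they chose the cells. Each was lower in drug cells, with ratios from 0.755 for Cldn5 to 0.915 for Cdh5. Cldn5, the tight junction claudin, stood at 4190 and 3165 CPM (ratio 0.755, interval 0.735 to 0.777), although it was found in 93.2% and 92.9% of cells. Pecam1, an adhesion molecule at endothelial contacts, stood at 455 and 367 CPM, and Flt1 at 2012 and 1737 CPM. These ratios are descriptions, and the median log2 ratio of the 8 genes was -0.21. That median was -0.06 in cells without 2 markers of another type, with Cldn5 at 0.899 (0.848 to 0.952) and Flt1 at 0.963 (0.886 to 1.05).

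Among 32 other genes of endothelial identity, 2 were past 1.5-fold, both lower, against 2.08% of all genes, and the median log2 ratio was -0.22. The 2 were Plvap and Gpihbp1, the lipoprotein lipase anchor of capillaries. Ly6a, a membrane protein of mouse endothelium, stood at 1832 and 1589 CPM, the transcription factor Epas1 at 822 and 732 CPM, and Cd34 at 461 and 395 CPM. The median of the list was -0.03 in cells without 2 markers of another type, and Gpihbp1 was at a log2 ratio of 0.13, given without an interval. In the other barcodes the same list had a median log2 ratio of 0.31.

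Of 25 barrier transporters and their partners, 0 were past 1.5-fold in either direction (percent over all genes 6.96), and the median log2 ratio was -0.14. Bsg, the chaperone of monocarboxylate transporters, stood at 4411 and 3258 CPM (ratio 0.739, interval 0.719 to 0.759). The glucose transporter Slc2a1 stood at 772 and 687 CPM (0.889, interval 0.835 to 0.946), the organic anion transporter Slco1a4 at 1411 and 1303 CPM (0.924, interval 0.882 to 0.967) and the efflux pump Abcb1a at 920 and 766 CPM (0.832, interval 0.785 to 0.882). The taurine transporter Slc6a6 stood at 671 and 673 CPM (interval of the ratio 0.939 to 1.07). In cells without 2 markers of another type, Slc2a1 was at 1.10 (0.962 to 1.27) and Slco1a4 at 0.979 (0.888 to 1.08), while Bsg stayed below 1 at 0.839 (0.789 to 0.892).

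The counts of this and the following lists are to be read against the 4.88% higher and 2.08% lower over all genes, since 1 called gene in a list of this size is near those shares. Of 17 junction genes, 1 was lower and 0 higher, with a median log2 ratio of -0.19 (-0.29 in cells without 2 markers of another type). The 1 was Nectin2, an adhesion protein, at 37.2 and 23.1 CPM. Tjp1, the scaffold ZO-1, stood at 602 and 506 CPM and Ocln, occludin, at 112 and 85.5 CPM. Lsr, a protein of tricellular contacts, stood at 133 and 134 CPM. The 23 Notch and Wnt genes had a median of -0.10 (0.07 in cells without 2 markers of another type) with 1 higher and 0 lower. The 1 was Hey2, a Notch target, at 8.55 and 17.0 CPM on 20 and 56 UMIs. Lef1 stood at 427 and 364 CPM and Foxq1 at 272 and 259 CPM. Of 14 genes of VEGF, angiopoietin and adrenomedullin signalling, 1 was lower, the ligand Adm at 29.9 and 19.5 CPM, and in cells without 2 markers of another type its log2 ratio was -0.04. Among the receptors stood Kdr at 283 and 242 CPM, Tek at 269 and 213 CPM and Tie1 at 194 and 163 CPM. The median log2 ratio of that list was -0.26.

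Genes were ranked by the interval bound nearest to 1, and 12 were taken in each direction. They had to be found in at least 5% of endothelial cells and at least 2 times the share of other barcodes in the library where they were higher, a filter that favours the difference it ranks, so the 2 lists are descriptions. Cyp26b1, the retinoic acid hydroxylase, stood at 183 CPM in noise-only and 104 CPM in drug cells (ratio 0.567, interval 0.490 to 0.655), with a UMI in 19.5% and 11.8% of cells against 0.666% and 1.01% of other barcodes. In cells with at least 1000 UMIs, each thinned to 1000, the shares were 13.8% and 7.80%. In cells without 2 markers of another type it stood at 164 and 147 CPM (ratio 0.895, with an interval that starts at 0.639 and includes 1), so the call was lost there, while in the cells that carried such markers it was 0.514 (0.437 to 0.604). In the other barcodes Cyp26b1 was higher in the drug library, at 5.81 and 7.91 CPM (1.36, interval 1.13 to 1.64).

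Other genes on the lower side included Plvap, at 87.7 and 46.8 CPM (0.534, interval 0.431 to 0.662). In the other barcodes Plvap was higher in the drug library, at 6.05 and 9.63 CPM (1.59, interval 1.33 to 1.90). The ratios of Synpo2, Kif23 and Pcp4l1 in the other barcodes had intervals that included 1. Synpo2, an actin-binding protein, stood at 73.1 and 41.7 CPM (0.570, interval 0.452 to 0.718). The motor protein gene Kif23 stood at 27.8 and 11.9 CPM (0.427, interval 0.279 to 0.644). Pcp4l1 stood at 1226 and 928 CPM (0.757, interval 0.719 to 0.796). In cells without 2 markers of another type, Plvap and Synpo2 kept ratios below 1, at 0.628 (0.431 to 0.906) and 0.552 (0.325 to 0.915), and Kif23 was at 0.445 on 14 and 6 UMIs (0.140 to 1.23).

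The higher side held smaller ratios, none past 1.5-fold. Of its 12 genes Rreb1, a zinc finger transcription factor, and Proser2 had intervals above 1, at 29.1 and 40.1 CPM (1.38, interval 1.02 to 1.88) and 22.2 and 31.6 CPM (1.42, interval 1.01 to 2.02). Both entered through the drug library: Rreb1 was found in 5.92% of noise-only endothelial cells against 3.81% of other barcodes, and in 2.25% against 2.44% after thinning to 1000 UMIs, and Proser2 in 4.51% against 2.30%. In cells without 2 markers of another type both were below 1, at 0.819 (0.387 to 1.70) and 0.889 (0.376 to 2.07). The other 10, among them the guanylate-binding protein gene Gbp4 (98.8 and 116 CPM) and the small heat shock gene Hspb1 (1187 and 1234 CPM), had intervals that included 1.

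The median difference of the endothelial genes, which contain the 8 genes of the rule, was larger in deeper cells. The rule asks for 4 of its genes at any depth, so shallow cells had to hold a larger share of their UMIs. Together the rule's genes, Cldn5 among them, stood at 16516 and 15712 CPM below 1000 UMIs. At 4000 UMIs and over they stood at 8535 and 4727 CPM. How far the selection shapes the differences by depth was not tested. The endothelial genes had median log2 ratios of -0.05, -0.09, -0.31 and -0.69 in cells with 500 to under 1000, 1000 to under 2000, 2000 to under 4000 and 4000 or more UMIs. Cldn5 had ratios of 0.844 (0.785 to 0.907), 0.804, 0.661 and 0.494 (0.456 to 0.535) in the same order, and Cyp26b1 0.649 (0.472 to 0.898), 0.572, 0.451 and 0.354 (0.215 to 0.564). Slc2a1 went from 0.915 (0.778 to 1.08) to 0.489 (0.407 to 0.584). Isg15, an interferon response gene, had intervals that included 1 in all 4 ranges. Foreign transcripts differed alongside: markers of the other types took 0.577, 0.643, 0.740 and 0.958% of noise-only and 0.720, 0.851, 1.23 and 2.21% of drug endothelial UMIs in these ranges. Cells without 2 markers of another type were 45.9% and 39.0% of the cells in the shallowest range and 7.34% and 1.77% in the deepest.

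**Figure D3:**
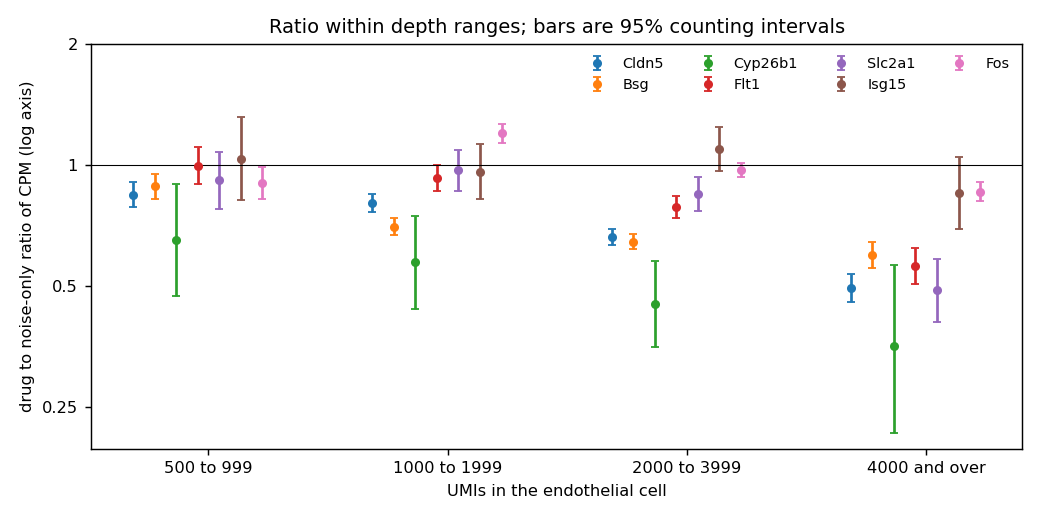
Ratio of drug to noise-only CPM within 4 ranges of UMIs per endothelial cell, on a log axis, with 95% counting intervals. Cldn5, Bsg, Cyp26b1 and Slc2a1 lie further below 1 at 4000 UMIs and over than below 1000 UMIs, and the intervals of Isg15 include 1 in each range.

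Interferon response genes, which cells switch on after viral or inflammatory signals, mostly lay within 1.5-fold. Of 29 measured, 1 was higher and 0 lower, and the median log2 ratio was 0.04, against -0.18 for endothelial genes. Isg15, a ubiquitin-like modifier whose element is printed above, stood at 423 and 447 CPM (1.06, interval 0.975 to 1.15). Ifit1, which binds foreign RNA, stood at 301 and 278 CPM (0.923, interval 0.836 to 1.02). In the other barcodes Isg15 was lower in the drug library, at 187 and 139 CPM. The 1 higher gene was Ifi27l2a, at 358 and 648 CPM (1.81, interval 1.67 to 1.96), against 1018 and 1445 CPM in the other barcodes. Its log2 ratio was 0.15, within 1.5-fold, in cells without 2 markers of another type. The 16 MHC class I genes had a median of -0.22 with 1 lower, H2-Q7 at 58.6 and 38.3 CPM (log2 ratio -0.19 in cells without 2 markers of another type), a gene with close relatives among which reads may be split. The 4 measured MHC class II genes together were lower in endothelial cells (66.3 and 108 CPM) than in the other barcodes (404 and 426 CPM). In drug cells 3 were higher, H2-Ab1, H2-Eb1 and Cd74, the last at 24.8 and 41.7 CPM with 24.1% and 38.7% of its UMIs in 1 cell. The log2 ratio of Cd74 was -0.35 and that of H2-Ab1 0.23 in cells without 2 markers of another type. That of H2-Eb1 was 1.11 there, against 0.71 in all cells.

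Immediate early genes, which respond to stimuli and to tissue dissociation, had 0 of 21 past 1.5-fold and a median of 0.02. Fos stood at 4275 and 4219 CPM and Egr1 at 2200 and 2234 CPM, and the flow-induced factors Klf2 and Klf4 at 2064 and 2020.5 CPM and 705 and 717 CPM. These totals hid differences by depth. From the shallowest to the deepest range the immediate early median was -0.12, 0.25, -0.04 and -0.17. From 1000 to under 2000 UMIs the ratio was 1.22 (1.13 to 1.31) for Klf2 and 1.20 for Fos. At 4000 UMIs and over it was 0.692 (0.629 to 0.761) for Klf2 and 0.859 for Fos. Among 14 heat shock genes, the inducible pair Hspa1a (184 and 281 CPM, ratio 1.53, interval 1.36 to 1.72) and Hspa1b (64.6 and 103 CPM, ratio 1.60, interval 1.32 to 1.95) were higher; reads of these near-identical copies cannot be told apart with certainty. In the other barcodes their ratios had intervals of 1.31 to 1.42 and 1.40 to 1.62. Of 17 cytokine and NF-kB genes, Lcn2 (21.4 and 112 CPM) and Cxcl2 (9.41 and 42.0 CPM) were higher and Ch25h, cholesterol 25-hydroxylase, was lower (37.6 and 21.9 CPM). Lcn2 and Cxcl2 are lower in endothelial cells than in the other barcodes, 44.2% of the drug UMIs of Cxcl2 lay in 1 cell, and in cells without 2 markers of another type Lcn2 had a log2 ratio of -0.29 and Cxcl2 of 0.54. The leukocyte adhesion genes Icam1 (74.4 and 69.9 CPM) and Vcam1 (123 and 136 CPM) had intervals that included 1.

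Genes of vascular tone had 1 of 16 higher, Ptgds, the prostaglandin D synthase, at 5022 and 7827 CPM against 14474 and 19801 CPM in the other barcodes, with 26.0% of its noise-only UMIs in 1 cell. The log2 ratio of Ptgds was 0.64 in all cells and 1.03 in cells without 2 markers of another type. Nos3, endothelial nitric oxide synthase, stood at 83.4 and 91.5 CPM and Edn1, the vasoconstrictor endothelin, at 165 and 164 CPM. The 6 measured histone deacetylase genes had 0 past 1.5-fold, with Hdac1 at 71.4 and 73.3 CPM and Hdac7 at 100.1 and 98.8 CPM. Of 14 genes listed as reported to rise with deacetylase inhibitors, the class of drug to which VPA belongs, 3 were higher and 0 lower, against 4.88% higher and 2.08% lower over all genes, and the median log2 ratio was -0.0033. The 3 were Clu (203 and 562 CPM) and the pair Hspa1a and Hspa1b. Clu is below the level of the other barcodes. Its log2 ratio was 1.47 in all cells and 0.81 in cells without 2 markers of another type. All 13 mitochondrially encoded genes were higher in drug cells, from 1.31 for mt-Co2 to 1.64 for mt-Nd4l, and 3 were past 1.5-fold. In the other barcodes the median log2 ratio of those 13 genes was 0.39, against 0.51 here.

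**Figure D4:**
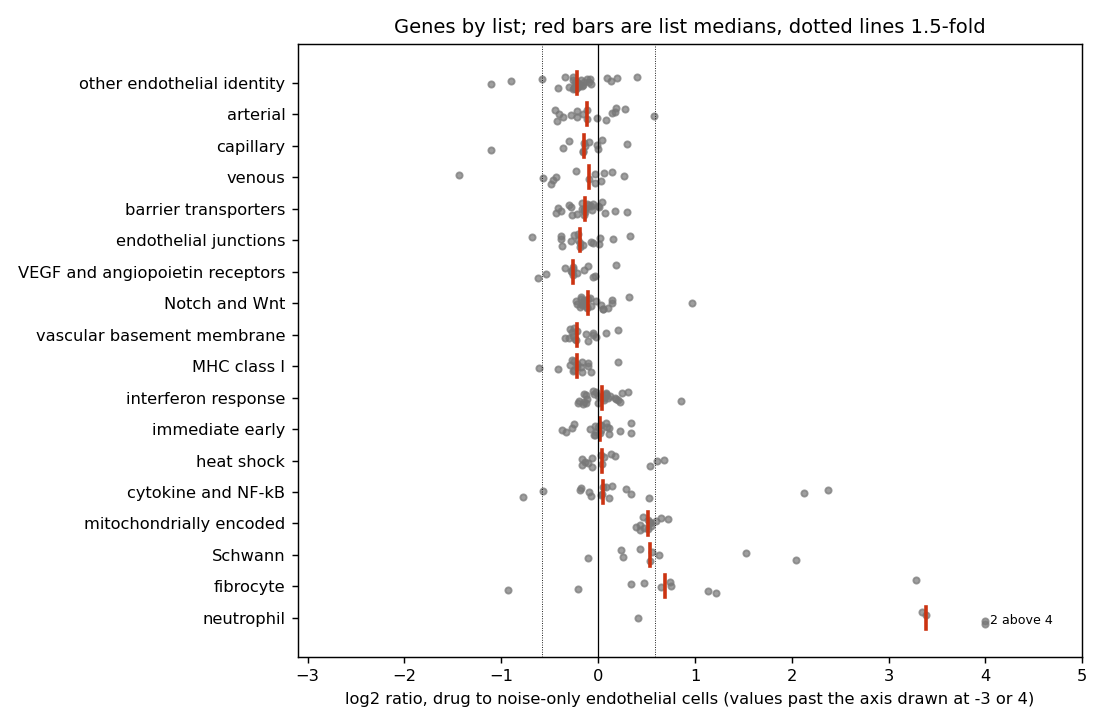
Log2 ratio of drug to noise-only endothelial cells for the tested genes of selected lists, with medians in red and dotted lines at 1.5-fold; values past 4 are drawn there. The lists of endothelial genes have medians below 0, interferon response and immediate early genes lie at 0.04 and 0.02, and mitochondrial, Schwann, fibrocyte and neutrophil genes lie above 0.5.

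Endothelial cells were also divided by genes of the vessel tree. Cells with at least 3 of 13 arterial genes (among them Sema3g, Efnb2, Bmx and Gkn3) and at most 1 of 12 venous genes (among them Nr2f2, Slc38a5, Vwf and Vcam1) are called arterial, and the reverse venous. The gene sets, the thresholds and the examples were chosen after values were seen. They gave 90 and 118 arterial cells (8.45% and 6.63%), 134 and 172 venous cells (12.6% and 9.66%), 58 and 69 with both and 783 and 1422 with neither. With 1000 UMIs per cell, which left out 266 and 589 shallower cells, arterial cells were 4.51% (3.18 to 6.18%) and 3.52% (2.55 to 4.73%) and venous cells 6.88% and 6.88%. The unclassified cells had medians of 1313 and 1242 UMIs against 1668 to 2631 in arterial and venous cells, and cells 1 gene short of a class numbered 78 and 155 for arterial and 101 and 124 for venous.

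Some genes that did not define the classes differed between them in both libraries. Others did not keep their order: Ptgds was highest in arterial noise-only cells (12062 CPM against 4747 CPM in unclassified and 2698 CPM in venous cells) and lowest in arterial drug cells (3301 CPM against 8467 and 7578 CPM). A single noise-only cell held a large part of these UMIs, as given above. Arterial noise-only cells held 3436 Ptgds UMIs and unclassified ones 6799. The class of that cell is not given, so the noise-only order may rest on it. Cxcl12, a chemokine, stood at 2303 CPM in arterial, 1958 CPM in unclassified and 279 CPM in venous noise-only cells, and at 2208, 1645 and 322 CPM in drug cells. Slc6a6 was highest in arterial cells, at 1053 and 1559 CPM against 678 and 716 CPM in venous cells. Jag2, a Notch ligand, was higher in arterial cells as well, at 140 and 187 CPM against 38.1 and 40.7 CPM. Edn1, Sox17 and Mgp, which stood on the first arterial list but were not used, were also highest in arterial cells of both libraries, Edn1 at 355 and 267 CPM against 83.8 and 109 CPM in venous cells.

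On the other side, carbonic anhydrase Car4 was higher in unclassified and venous cells, at 304 and 322 CPM in noise-only cells against 38.6 CPM in arterial cells, and 249, 307 and 35.5 CPM in drug cells. The VEGF co-receptor Nrp2 stood at 528 and 425 CPM in venous against 253 and 160 CPM in arterial cells. Ptgs2, the inducible prostaglandin synthase, stood at 180 and 227 CPM in venous against 31.6 and 31.1 CPM in arterial cells, and the NF-kB inhibitor Nfkbia at 1294 and 1216 CPM against 565 and 613 CPM. The barrier gene Slco1a4 differed less along the tree and stood between 1323 and 1589 CPM in the 3 noise-only classes and between 1226 and 1361 CPM in the 3 drug classes. Cyp26b1 had drug to noise-only ratios of 0.851 (0.552 to 1.30) in arterial, 0.573 (0.481 to 0.683) in unclassified and 0.593 (0.386 to 0.904) in venous cells; differences between classes were not tested.

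**Figure D5:**
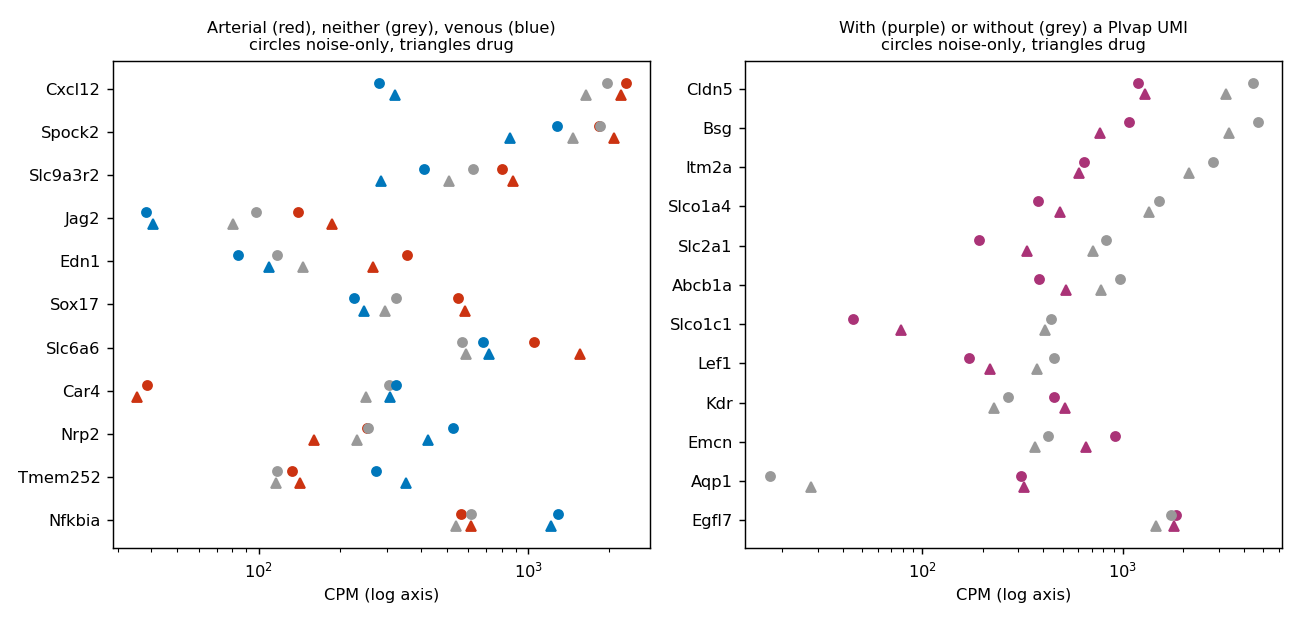
CPM on a log axis of genes by class of endothelial cell, with circles for noise-only and triangles for drug. Left, Cxcl12 is low in venous cells and Car4 low in arterial cells in both libraries; right, cells with a Plvap UMI hold less Cldn5, Bsg, Slco1a4 and Slc2a1 and more Aqp1 and Emcn than the rest.

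A small set of cells, marked by a Plvap UMI, held less of the barrier transcripts. A Plvap UMI was found in 74 noise-only (6.95%, interval 5.50 to 8.64%) and 79 drug endothelial cells (4.44%, interval 3.53 to 5.50%), with medians of 2107 and 1733 UMIs, against 0.911% and 1.46% of the other barcodes, and in 6.13% and 3.61% after thinning to 1000 UMIs. In these cells Cldn5 stood at 1184 and 1287 CPM against 4470 and 3265 CPM in the rest, and Bsg at 1078 and 773 CPM against 4722 and 3390 CPM. Slco1a4 stood at 376 and 483 CPM against 1508 and 1347 CPM, and Slco1c1, a thyroid hormone transporter, at 45.1 and 78.5 CPM against 439 and 408 CPM. Lef1 stood at 171 and 217 CPM against 451 and 372 CPM, so the Wnt factor was lower along with the transporters. Cldn5, and Ly6c1, Flt1, Egfl7 and Cdh5 below, are genes of the rule. Their levels in cells with a Plvap UMI therefore depend on the selection.

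Other endothelial transcripts went either way in these cells. Ly6c1 was lower, at 1013 and 1432 CPM against 2333 and 1935 CPM, as were Ly6a at 978 and 1281 CPM against 1911 and 1605 CPM and Sox17 at 201 and 248 CPM against 346 and 311 CPM. Flt1 stood at 1585 and 1800 CPM against 2051 and 1733 CPM, so its direction differed between the libraries. Egfl7, a secreted endothelial factor, stood at 1840 and 1800 CPM against 1735 and 1468 CPM, and Cdh5 at 557 and 797 CPM against 528 and 469 CPM. Kdr stood at 451 and 513 CPM against 267 and 228 CPM, Emcn, a sialomucin of capillaries and veins, at 913 and 652 CPM against 424 and 364 CPM, and the water channel Aqp1 at 311 and 320 CPM against 17.3 and 27.9 CPM. Gpihbp1 stood at 211 and 163 CPM against 11.2 and 5.12 CPM. With at least 2 Plvap UMIs in place of 1, each of these differences from the cells without Plvap kept its direction where computed (Cldn5, Bsg, Slco1a4, Slco1c1, Lef1, Gpihbp1, Aqp1 and Emcn). Lymphatic endothelium was rare: at least 5 of 7 lymphatic genes were found in 3 noise-only and 1 drug cell, and 63.8% and 81.4% of the UMIs of the lymphatic chemokine Ccl21a lay in 1 cell.

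The remaining lists are given by their counts, beside the 2.08% lower and 4.88% higher over all genes. The 17 measured arterial genes had 0 past 1.5-fold and a median log2 ratio of -0.12, and the 16 basement membrane genes had 0 and -0.22. In cells without 2 markers of another type these medians, over genes with at least 50 UMIs there, were 0.13 and -0.29. The 12 capillary genes had 1 lower, Gpihbp1, and the 13 venous genes had 1 lower, Selp, the leukocyte adhesion molecule P-selectin. Gpihbp1 turned to a log2 ratio of 0.13 in cells without 2 markers of another type, and Selp to 0.053 without the cells with a Plvap UMI, which held 49 of its 66 noise-only UMIs. Selp and Ccl21a were also the 2 lower of 11 adhesion genes. Of 22 glycolysis and hypoxia genes 2 were lower, Adm and Ankrd37 (21.8 and 12.2 CPM), and of 17 antioxidant genes 1 was lower, the sulfiredoxin gene Srxn1 (17.1 and 7.60 CPM). Ankrd37 turned to a log2 ratio of 0.11 after thinning to 1000 UMIs. In cells without 2 markers of another type the log2 ratio was -1.30 for Ankrd37, 0.79 for Srxn1 and -0.04 for Adm. Such values of single genes in a subset carry no interval here. They needed only 3 UMIs in the 2 sums together, so a change of sign may be counting error. The 14 glucocorticoid targets and the 7 measured cell cycle genes had 0 past 1.5-fold. Of 5 measured genes of fenestrated endothelium 3 were lower, Plvap, Gpihbp1 and Igfbp3, with a median of -0.69. In cells without 2 markers of another type the median over the list's genes with at least 50 UMIs there was 0.18. That figure equals the highest log2 ratio of Kdr under any alternative. The number of genes behind it is not given, so it may not cover the same genes as the -0.69. Plvap stayed at -0.67 in those cells, while Gpihbp1 was at 0.13 and Igfbp3 at 0.49.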

How the data were processed

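Droplet libraries of single cells were compared as 2 groups of 1 pooled library each. The authors deposited raw UMI counts per gene and barcode, made with Cell Ranger 5.0.1 per the file headers; the submitters' processing notes also name STAR, Seurat 3.2.2 and the mouse build mm10. Here, identifiers with one symbol were added up and counts of the endothelial cells were summed per library and divided by their total (CPM). A gene was tested for size when both sums together held at least 50 UMIs, and called at 1.5-fold. Ratios carry exact conditional binomial intervals (scipy 1.17.1), and shares Clopper-Pearson intervals. Members, gene lists and tests were chosen with earlier results of these data known. Named genes were the rule's genes, up to 12 enriched genes in each direction, the extremes and most abundant of each list, and the 10 most abundant enriched genes; others in the text were chosen after their values were seen. Depth over all deposited barcodes was 38380393 and 39939170 UMIs. Scripts were tested on simulated data. Alternatives varied the rule, depth, scaling (edgeR 4.0.16 TMM factors among them) and minimum counts. The genes that define the arterial and venous classes are not all named here.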

Additional observations from a re-analysis of the deposited data

How the results depend on the processing

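The ratio of endothelial shares (1.45) was 1.24 at 1000 UMIs and over and 1.20 at 2000 UMIs and over. Thinning to 500 UMIs gave 1.30, and thinning to 1000 UMIs, which left out shallower barcodes, gave 1.10. The ratio was 1.57 at no more than 10% mitochondrial UMIs and 1.19 without Schwann-marked barcodes. The 459 higher and 196 lower genes became 125 and 103 in cells under 1000 UMIs, 93 and 144 in cells without 2 markers of another type (3259 genes tested), and 1032 and 61 on the scale of the endothelial genes, chosen after seeing the data. That scale moved the median of all genes to 0.18 and the share of higher calls from 70.1% to 94.4%; that share was 39.2% without cells with 2 other markers, 54.8% under 1000 UMIs, 53.4% at a smaller fold threshold and 83.5% at 2-fold. Thinning to 1000 UMIs gave 280 higher, and the mean of each cell's CPM 343 lower. Minimums of 20, 200 and 1 UMI gave 952, 98 and 3722 higher and 449, 25 and 2145 lower, and the smaller threshold and 2-fold gave 1206 and 147 higher and 1051 and 29 lower. Without cells with 2 other markers the fenestrated median, over the list's genes with at least 50 UMIs left, was 0.18. Plvap stayed at a log2 ratio of -0.67 in these cells. There the log2 ratio turned to 0.13 for Gpihbp1, 0.49 for Igfbp3, 0.12 for Sh2d3c, 0.79 for Srxn1, -0.29 for Lcn2 and -0.35 for Cd74. In cells under 1000 UMIs it was -0.31 for Lcn2, -1.75 for Cd74, 0.12 for Fabp4, -1.49 for H2-Ab1 and 2.36 for Ccl21a. Without Plvap cells, an alternative added after seeing the data, it was 0.053 for Selp on 17 and 26 UMIs. For Ccl21a it was 3.58 on 2 and 43 UMIs. After thinning to 1000 UMIs it was 0.11 for Ankrd37. A gene's value in an alternative needed only 3 UMIs in the 2 sums together. Why these values moved was not tested. Depth limits genes with few UMIs most. No paired analysis was possible because each group is 1 pooled library.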
